A study of Glycine max with 13 samples.

Results

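The binding events of the maize auxin response factor ARF7 on soybean leaf DNA were compared with those of ARF10, ARF14, ARF25 and ARF36. The ARF7 list was taken whole and held 20802 of the 177320 events deposited for 12 maize ARFs. ARF36 had 22516 events, ARF25 had 19058, ARF10 had 12286 and ARF14 had 9542. The assay was DNA affinity purification sequencing (DAP-seq), which sequences the genomic fragments that a purified, tagged protein pulls down from bare DNA. Every protein was offered the same kind of DNA, phenol-extracted from soybean leaf, with no chromatin and no other treatment. Each protein had 1 library and 1 list, so no protein has a replicate check. A negative control library with the GST-HALO tag belonged to the series but is not analysed here. ARF39, which is placed with these 5 proteins, was set aside because its list is short.

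ARFs are plant transcription factors that recognise short auxin response elements through a B3-type DNA-binding domain and often bind as dimers. They connect the hormone auxin to its target genes. The published phylogeny of maize ARFs puts ARF7, ARF10, ARF14, ARF25 and ARF36 in clade B, whose members are generally described as repressors of transcription. That placement is background knowledge which the sample labels do not give.

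An event is the single base at which the authors' caller placed a binding event, and its strength is the value the caller gave it. The median strength was 37 in the ARF7 list, against 32 for ARF10, 38.7 for ARF14, 37 for ARF25 and 36 for ARF36. The strongest event reached 8743 in the ARF7 list, against 7887 for ARF10, 8866 for ARF14, 17268 for ARF25 and 20864 for ARF36. No common scale is stated, so these values describe each list, no difference in strength is drawn from them, and events were ranked within their own list. Read totals are not part of the lists, and the depth of each library is unknown. A protein without an event at a position may have bound there below the threshold of its list. Intervals are Wilson 95% intervals and cover counting error only.

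ARF7 shared most positions with ARF36 and fewest with ARF10. Events counted as shared when their positions lay within 100 bp. Of the ARF7 events, 56.5% (55.8% to 57.2%) lay at an ARF36 event, 44.4% (43.7% to 45.05%) at an ARF25 event, 35.5% (34.8% to 36.1%) at an ARF14 event and 31.4% (30.8% to 32.1%) at an ARF10 event. None of these intervals overlapped, but they cover counting error only. The same ARF7 events of 1 library enter every share, so the intervals do not test a difference between proteins. In the other direction, ARF7 had an event at 76.3% of the ARF14 events, 52.3% of the ARF36 events, 52.2% of the ARF10 events and 48.6% of the ARF25 events. The short ARF14 list was thus the one most fully covered by ARF7.

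The Jaccard index, shared events over all events of both lists, uses both lengths but does not correct for a difference between them. A short list paired with a long list cannot reach a high index. The values for all events therefore depend on list length as well as on sharing, and so do the differences between their means. The index was 0.373 for ARF7 with ARF36, 0.319 with ARF14, 0.302 with ARF25 and 0.243 with ARF10. The pair of ARF7 and ARF10 was the lowest of all 10 pairs. The mean over the 4 pairs with ARF7 was 0.309 ± 0.053 (SD), against 0.369 ± 0.051 (SD) over the 6 pairs without it. When each of the 5 proteins was singled out in turn, ARF7 gave the largest difference (-0.060, two-sided exact permutation test, p = 0.2, Benjamini-Hochberg adjusted over 8 tests 0.267). With 5 proteins 0.2 is the smallest p this test can give, so a difference of any size stays above 0.05.

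**Figure D1:**
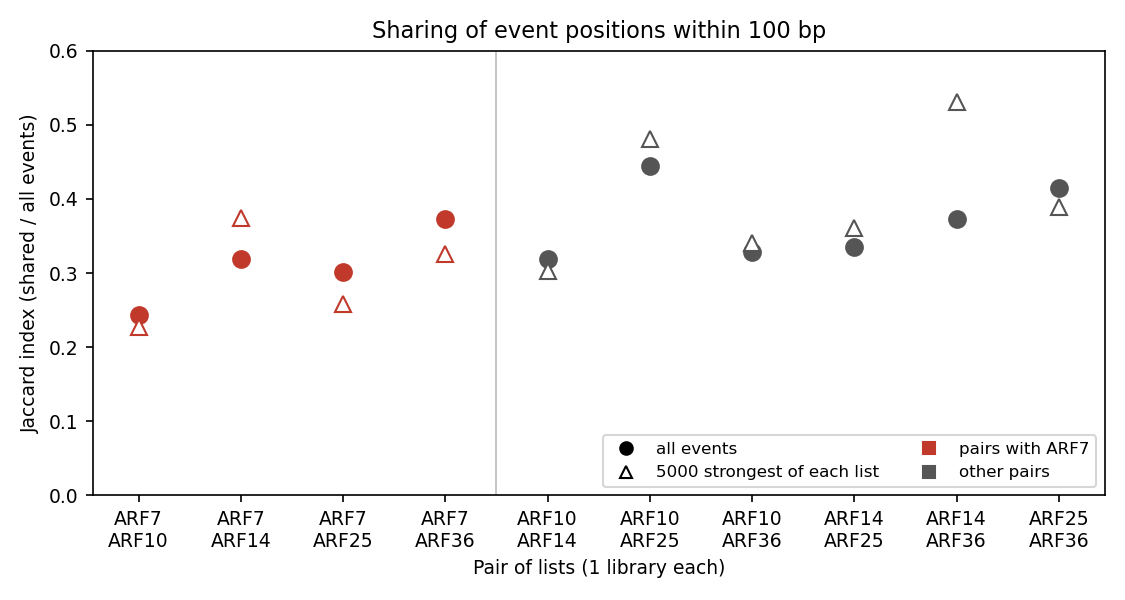
Jaccard index (shared events over all events of both lists, y axis) for each of the 10 pairs of lists (x axis), with pairs that include ARF7 in red at the left; filled circles use all events and open triangles the 5000 strongest of each list. ARF7 pairs lie between 0.228 and 0.374 with 5000 events, and the other pairs between 0.303 and 0.531.

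Taking the 5000 strongest events of every list removed the difference in length and changed the order of partners. ARF7 then shared most with ARF14: 54.0% (52.6% to 55.4%) of its events lay at one of the 5000 ARF14 events. The share was 49.2% (47.8% to 50.5%) for ARF36, 41% (39.6% to 42.4%) for ARF25 and 37.3% (36.0% to 38.6%) for ARF10. The indices were 0.374 with ARF14, 0.326 with ARF36, 0.258 with ARF25 and 0.228 with ARF10. They averaged 0.297 ± 0.066 (SD, 4 pairs) with ARF7, against 0.401 ± 0.088 (SD, 6 pairs) without it (difference -0.104, exact permutation test, p = 0.2, adjusted 0.267). Without the ARF25 list this rank was lost: the difference was -0.082 for ARF7 and -0.120 for ARF10, whose closest partner is ARF25. With all events the rank was lost in more than 1 way. Without ARF25 the difference was -0.028 for ARF7, and it was larger in size for ARF36 (0.064) and ARF10 (-0.058; exact permutation test for ARF7, p = 0.75). Without ARF10 it was -0.043 for ARF7 and 0.068 for ARF36 (exact permutation p = 0.5). Without ARF14 or ARF36, ARF7 again gave the largest difference, at the smallest p that 4 proteins allow (0.25).

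The 5000 strongest events were 24.0% of the ARF7 list, against 40.7% of the ARF10 list, 52.4% of ARF14, 26.2% of ARF25 and 22.2% of ARF36. The last event inside and the first outside had equal strength in each list, 57.8 for ARF7, 35 for ARF10, 37 for ARF14, 55 for ARF25 and 59 for ARF36. The order ARF14, ARF36, ARF25, ARF10 was the same at each of the 5 lengths tried. With 500 events per list the ARF7 indices were 0.335 with ARF14, 0.309 with ARF36, 0.245 with ARF25 and 0.186 with ARF10. With 9542 events, the length of the shortest list, they were 0.378, 0.358, 0.281 and 0.245 in that order of partners. Over these lengths, from 500 to 9542 events, the mean index of the ARF7 pairs was 0.263 to 0.316, against 0.340 to 0.401 for the other pairs.

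ARF7 had the largest share of events that none of the other 4 lists held. Of its 20802 events, 7262 (34.9%, 34.3% to 35.6%) had no event of the other 4 lists within 100 bp, here called alone. The same share was 12.4% for ARF10, 2.86% for ARF14, 20.1% for ARF25 and 24.2% for ARF36. A further 16.9% of the ARF7 events lay at 1 other list, 13.9% at 2, 14.2% at 3 and 20.1% (4186 events) at all 4. ARF7 thus had many events at either end and fewer between. The difference in the share alone was 20.03 percentage points over the mean of the other 4 (14.9% ± 9.4, SD; exact permutation test, p = 0.2, adjusted 0.267). The ARF14 share of 2.86% lay below the mean of its other 4 by almost the same amount, so ARF7 was hardly singled out. The exact permutation p was 0.4 at 50 bp, with ARF39 added, and with the events of lower −log10 q left out of each list. Without ARF10 or ARF25 the ARF7 share was still the highest, but the low share of ARF14 then lay further from the others (exact permutation p = 0.5 for ARF7 in both).

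**Figure D2:**
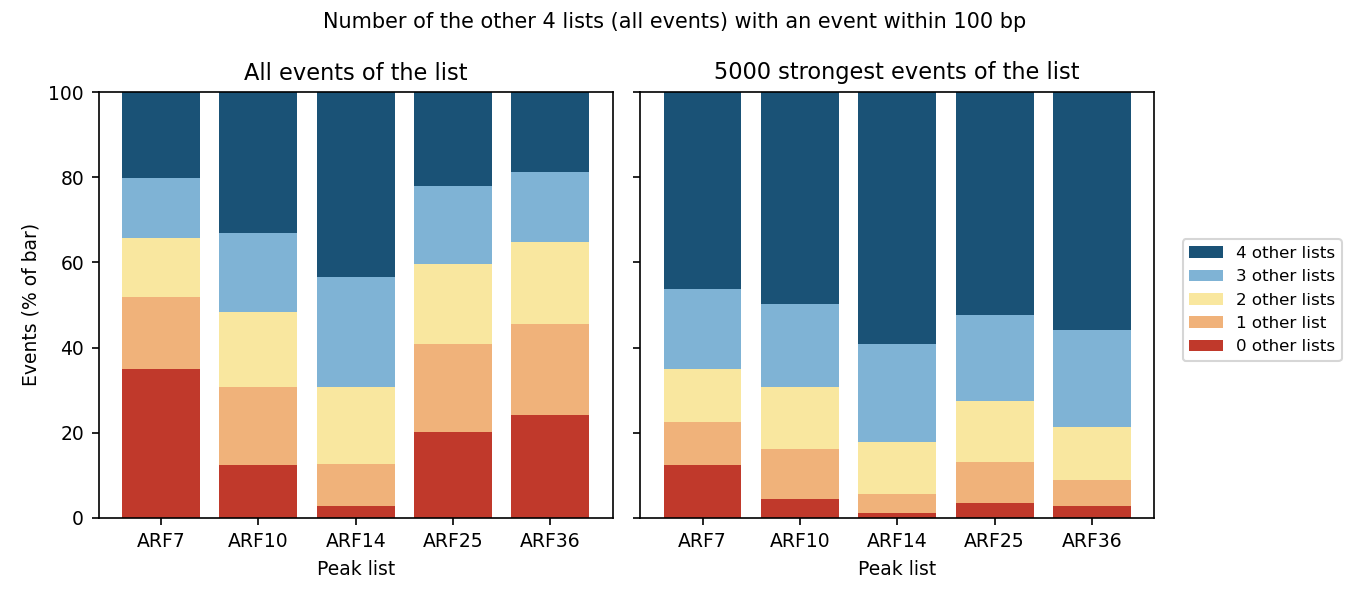
Share of events (y axis, %) by how many of the other 4 lists held an event within 100 bp, for each list (x axis), with all events of the named list at the left and its 5000 strongest at the right; both panels count against all events of the other lists. The red segment, events of no other list, is 34.9% for ARF7 at the left and 12.3% at the right, where the other lists lie between 1.10% and 4.34%.

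ARF7 also had the highest share alone, and ARF14 the lowest, among the strongest events, while ARF10, ARF25 and ARF36 came in another order. Among its 5000 strongest, 615 (12.3%, 11.4% to 13.2%) had no event of any strength in the other 4 lists. The corresponding share was 4.34% for ARF10, 1.10% for ARF14, 3.38% for ARF25 and 2.70% for ARF36, which is 2.88% ± 1.36 (SD, n = 4; difference 9.42 points, exact permutation test, p = 0.2, adjusted 0.267). Leaving out a list changed this picture for some proteins and not for others. Without the ARF25 list the share was 13.7% for ARF7 and 13.9% for ARF10, and without the ARF10 list it was 12.7% for ARF7 and 10.04% for ARF25. Without ARF14 or ARF36 it was 13.8% and 19.1% for ARF7, against 6.12% or less for the others. Counted only against the 5000 strongest of the other lists, 1638 ARF7 events (32.8%) stood alone, against 23.4% for ARF10, 12.4% for ARF14, 16.8% for ARF25 and 13.8% for ARF36. Of those 1638 events, 62.5% lay at a weaker event of another list. For the other 4 proteins that part was 79.9% to 91.2%.

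Sharing followed the strength of the ARF7 event. In the weakest decile of the ARF7 list, with strengths of 18 to 21, 57.1% of the events were alone and 5.31% had all 4 other lists. In the strongest decile, at 90.6 and above, 6.20% were alone and 62.9% had all 4. The strongest deciles of the other lists held 1.55% (ARF10), 1.05% (ARF14), 0.629% (ARF25) and 0.627% (ARF36) alone. ARF7 was above the other 4 lists in every one of the 10 deciles. Its partners differed along the ranking. The share of ARF7 events at an ARF14 event was 11.6% in the weakest decile and 83.2% in the strongest. It was 15.4% and 67.7% for ARF10, 24.5% and 80.5% for ARF25, and 33.4% and 90.3% for ARF36. ARF14 was the rarest partner of the weakest ARF7 events and the second most common partner of the strongest. The same held for the ARF36 list, with 8.42% of its weakest and 94.1% of its strongest decile at an ARF14 event. In the ARF10 and ARF25 lists ARF14 was the rarest partner in both deciles. The ARF14 list was also the shortest of the 5.

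**Figure D3:**
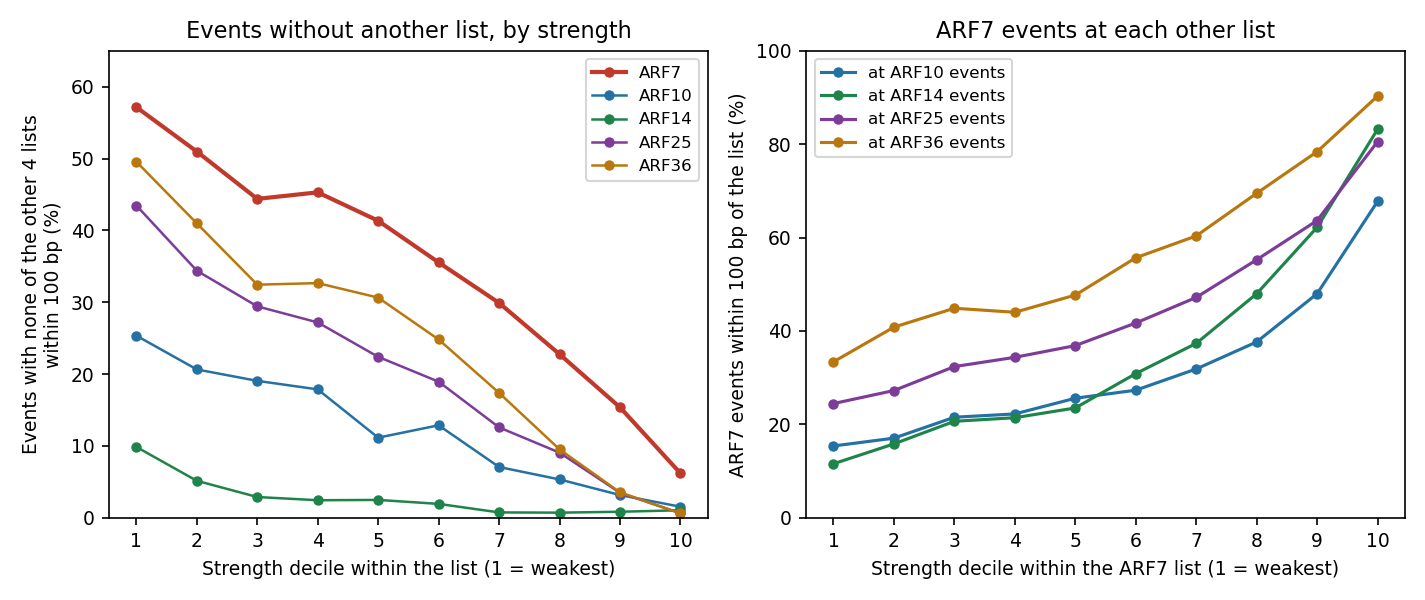
Left, share of events with none of the other 4 lists within 100 bp (y axis, %) by decile of strength within each list (x axis, 1 is weakest); right, share of ARF7 events at each other list by decile of ARF7 strength. The ARF7 line runs from 57.1% to 6.20% at the left and lies above the other 4 lists throughout.

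Median strength in the ARF7 list was 30 for events alone, 33 at 1 other list, 38 at 2, 43 at 3 and 63.9 at all 4. The median −log10 q was 6.85 for events alone and 16.3 for events with all 4. In the strongest decile it was 25.7 for events alone and 33.4 for events with all 4, and in the weakest decile it was 5.52 for both. The alone events were therefore mostly weak, though 615 of 7262 were among the 5000 strongest.

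At positions held by both lists, the ranks of strength were on average less alike for the pairs with ARF7 than for the other pairs. Spearman's rho across shared events was 0.54 with ARF14 (7137 pairs of events), 0.52 with ARF36 (11465), 0.44 with ARF25 (8990) and 0.41 with ARF10 (6304). The pairs without ARF7 ran from 0.48 (ARF10 and ARF14) to 0.72 (ARF14 and ARF36). The ranges overlapped: ARF7 with ARF14 and with ARF36 lay above ARF10 with ARF14 and with ARF36 (0.51). The means were 0.479 ± 0.065 (SD, 4 pairs) with ARF7 and 0.587 ± 0.092 (SD, 6 pairs) without it (difference -0.109, exact permutation test, p = 0.2, adjusted 0.267). Events of a list share their library and are not independent replicates, so these coefficients are descriptions.

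The 4 other proteins formed 2 closest pairs by the index of the 5000 strongest events, ARF14 with ARF36 (0.531) and ARF10 with ARF25 (0.481), and ARF7 lay more often with ARF14 and ARF36. For this count, events of the 5 lists were merged into 38220 sites when consecutive positions lay within 100 bp. ARF7 was present at 994 of the 1530 sites that held ARF14 and ARF36 without ARF10 and ARF25 (64.97%, 62.5% to 67.3%). It was present at 343 of the 1877 sites that held ARF10 and ARF25 without ARF14 and ARF36 (18.3%, 16.6% to 20.1%). With the 5000 strongest events of each list the shares were 43.5% of 944 sites and 9.97% of 893 sites. These pairs were picked after their indices were seen. The first 2 counts used all events, where ARF10 with ARF25 again had the highest index (0.445). With all events, however, ARF36 had a higher index with ARF25 (0.415) than with the shorter ARF14 list (0.373). The index of ARF36 with ARF7 was also 0.373.

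Among the ARF7 events themselves, the commonest partner set after none and all 4 was ARF36 without the others, with 2292 events (11.02%). ARF14, ARF25 and ARF36 without ARF10 followed with 1438 events (6.91%), then ARF10, ARF25 and ARF36 without ARF14 with 1220 (5.86%). ARF14 and ARF36 without the others held 1033 events and a median strength of 45, against 354 events and a median of 33 for ARF10 and ARF25 without the others.

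ARF7 was also absent from some positions that the other 4 all held. All 5 proteins were found at 4020 merged sites, and the 4 others without ARF7 at 754, which is 15.8% (14.8% to 16.9%) of the sites of those 4. By the same count ARF10 was missing at 25.9%, ARF14 at 23.4%, ARF25 at 4.87% and ARF36 at 1.74%. The shorter lists of ARF10 and ARF14 were missing more often than ARF7. With 5000 events per list the order changed: ARF7 was missing at 30.3% (28.2% to 32.5%) of 1737 sites. ARF10 was missing at 18.0%, ARF14 at 9.29%, ARF25 at 9.56% and ARF36 at 6.49%. Missing here means without any of the 5000 strongest events of that list, so a weaker event may lie at the site. The 5000 strongest were 24.0% of the ARF7 list, 40.7% of ARF10, 52.4% of ARF14, 26.2% of ARF25 and 22.2% of ARF36.

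Where lists coincided, the distance between their events had preferred values. For ARF7 and ARF25, 23.7% of the shared events lay exactly 3 bp apart, 1043 with the ARF25 event at the higher coordinate and 1086 at the lower. The next commonest distance of this pair, 9 bp, held 5.06%. No distance stood out in that way for ARF7 with the other proteins. The commonest was 0 bp with ARF36 (6.51%), 1 bp with ARF10 (6.87%) and 8 bp with ARF14 (6.12%). Among the other proteins, 28.4% of the events of ARF14 and ARF36 lay at the same base, 24.1% of those of ARF10 and ARF14 lay 2 bp apart and 22.0% of those of ARF10 and ARF36 lay 2 bp apart. The remaining pairs without ARF7 had weaker peaks. Their commonest distance held 11.5% for ARF10 and ARF25 (4 bp), 9.69% for ARF14 and ARF25 (4 bp) and 8.86% for ARF25 and ARF36 (3 bp).

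**Figure D4:**
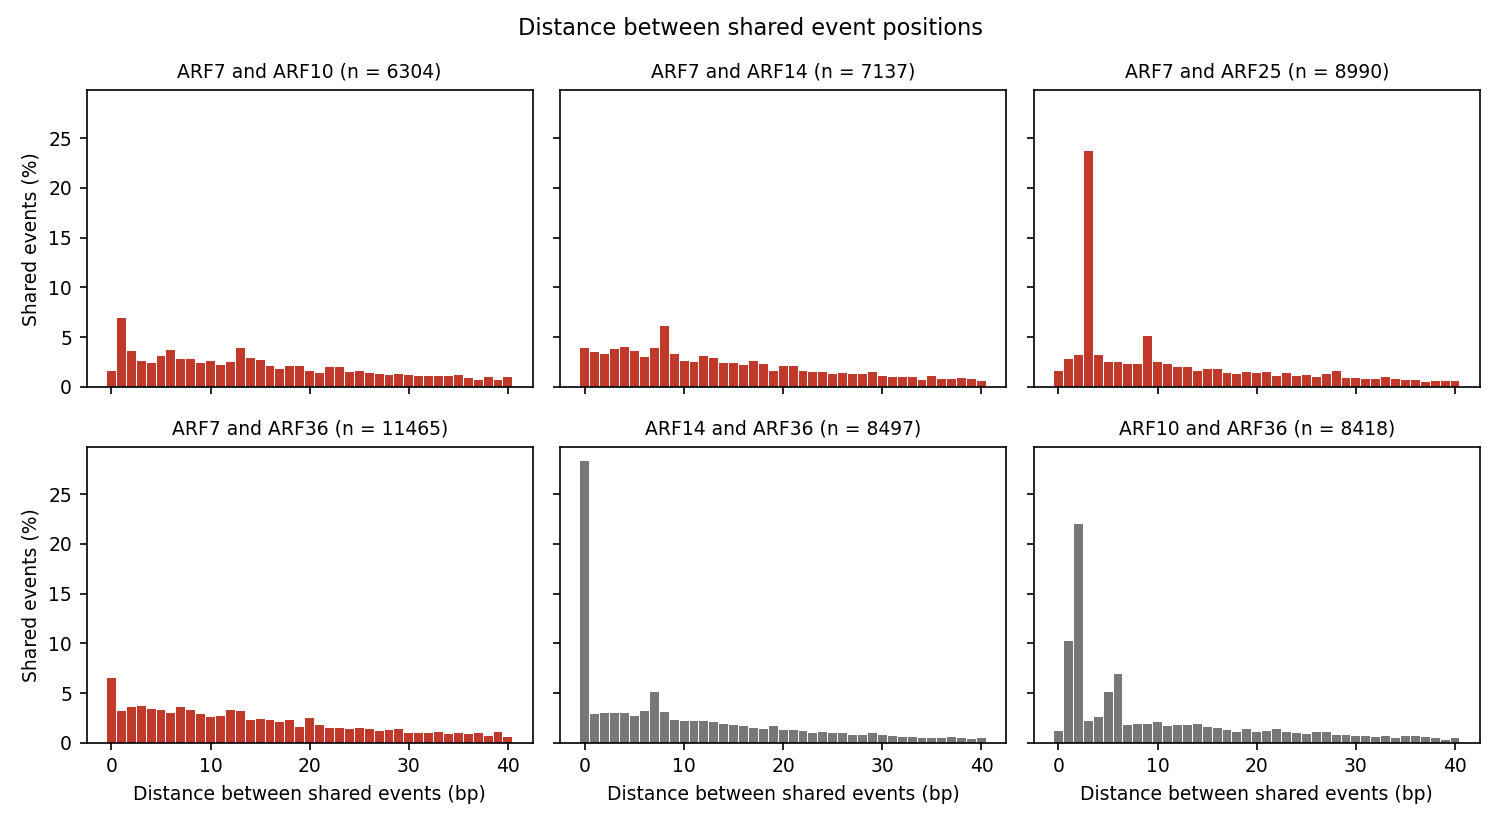
Share of shared events (y axis, %) at each distance from 0 to 40 bp (x axis), for ARF7 with each other list (red) and for 2 of the 6 pairs without ARF7 (grey). The bar at 3 bp for ARF7 and ARF25 is 23.7%, and the bar at 0 bp for ARF14 and ARF36 is 28.4%, while no bar of the other 3 ARF7 pairs exceeds 6.87%.

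The median distance was 10 bp for ARF7 with ARF25, 14 bp with ARF14, 14 bp with ARF36 and 16 bp with ARF10. It averaged 13.5 ± 2.5 bp (SD, 4 pairs) with ARF7 and 9.5 ± 2.9 bp (SD, 6 pairs) without it (exact permutation test, p = 0.2, adjusted 0.267). ARF25, the third in sharing by index, was thus the closest in position. GEM, the caller named in the titles of the lists, can centre events on a sequence pattern learned from each library. Which settings were used is not stated in the labels or files, and the part of such centring in these distances was not tested.

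The threshold of 100 bp cut through few events. The nearest event of the other 4 lists lay within 10 bp for 38.4% of the ARF7 events, at 91 to 100 bp for 91 events and at 101 to 110 bp for 67. Within 10 bp of another list lay 61.5% of the ARF10, 74.1% of the ARF14, 52.0% of the ARF25 and 51.3% of the ARF36 events. The ARF7 events alone were mostly far from any event of the other lists. Their median distance to the nearest one was 8766 bp, and 25.4% of them lay over 20000 bp away. For the events alone of the other lists the median was 8334 bp (ARF36), 8185.5 bp (ARF25), 6662 bp (ARF10) and 4763 bp (ARF14). Over 20000 bp away lay 23.4%, 21.9%, 18.5% and 17.2% of them, in that order.

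All 5 lists were spread over the 20 chromosomes in nearly the same proportions. ARF7 placed 3.84% (chromosome 16) to 6.16% (chromosome 18) of its events on a chromosome. The largest gap between ARF7 and another list on any chromosome was 0.574 percentage points, on chromosome 1, with 5.81% of the ARF7 and 5.23% of the ARF10 events. The largest gap was 0.396 points against ARF14, 0.515 points against ARF25 and 0.292 points against ARF36. Between pairs of the other 4 lists it was 0.304 to 0.607 points. Per Mb of the span covered by events, ARF7 had 18.8 (chromosome 15) to 24.1 (chromosome 19) events. The share of ARF7 events alone ran from 30.4% (27.7% to 33.4%) on chromosome 13 to 39.2% (36.5% to 42.0%) on chromosome 1, the lowest and highest of the 20. For the other lists it ran from 20.3% to 27.1% (ARF36), 18.4% to 22.5% (ARF25), 10.7% to 14.3% (ARF10) and 1.9% to 5.56% (ARF14).

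Position along the chromosome separated the ARF7 events alone from the shared ones. Of the ARF7 events alone, 54.5% (53.3% to 55.6%) lay in the middle of a chromosome, taken as 25% to 75% of the stretch from the first to the last event of the 5 lists. Of the ARF7 events with all 4 other lists, 42.6% (41.1% to 44.1%) lay there, and events with 1, 2 and 3 other lists fell between, at 50.97%, 47.4% and 46.7%. The share was higher for events alone on 19 of 20 chromosomes. It was also higher in each of 4 equal classes of strength, with 57.0% against 47.3% in the weakest and 53.7% against 41.5% in the strongest. Events of 1 library are not replicates, so no test was run.

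**Figure D5:**
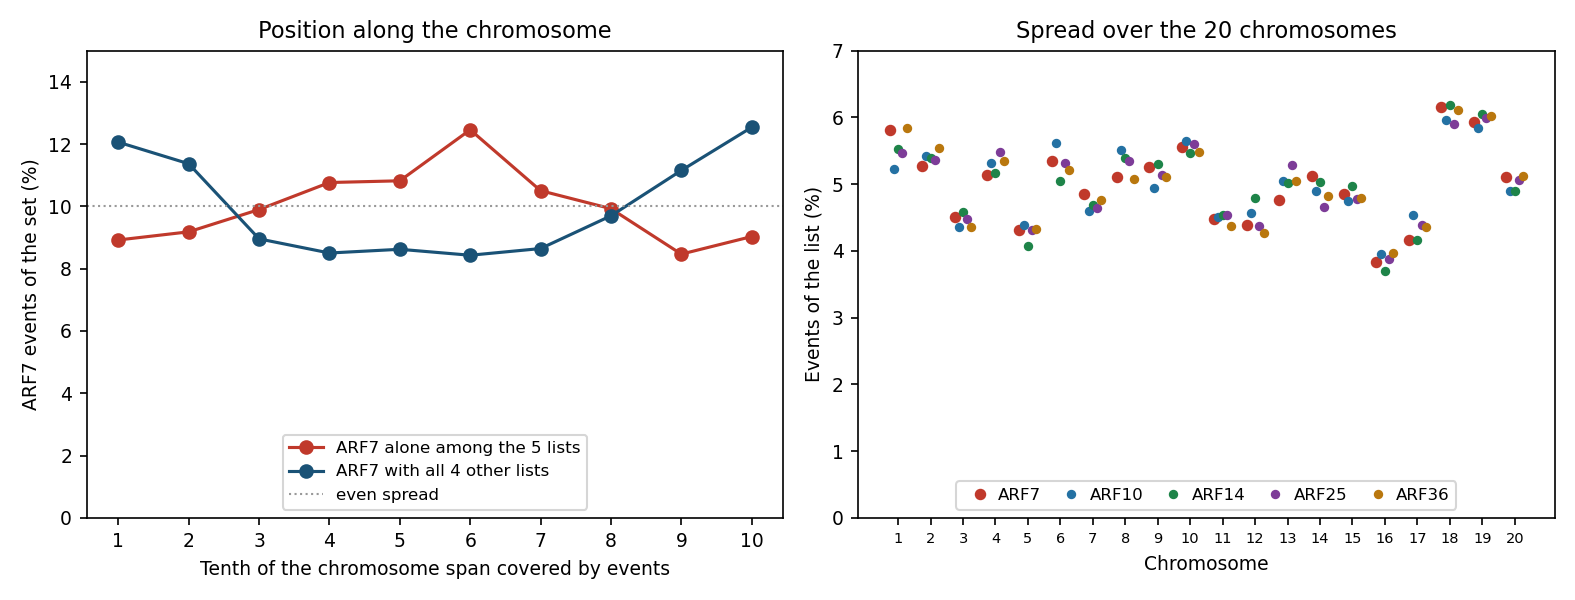
Left, share of the ARF7 events alone and of the ARF7 events with all 4 other lists (y axis, %) in each of 10 equal bins of the chromosome stretch covered by events (x axis), with 10% marking an even spread; right, share of each list's events on each of the 20 chromosomes. Events alone peak at 12.5% in the sixth bin, and events with all 4 lists reach 12.1% and 12.5% in the end bins.

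Of the other 4 lists, ARF10, ARF14 and ARF36 showed the same direction and ARF25 did not. The ARF14 events alone, which number 273, had 54.6% (48.6% to 60.4%) in the middle, close to the ARF7 value, and those with all 4 others 42.4%, higher alone on 17 of 20 chromosomes. The ARF36 events alone had 52.9% in the middle and those with all 4 others 42.3%, higher alone on 19 of 20 chromosomes. The ARF25 events alone had 41.7% and those with all 4 others 42.4%, higher alone on 10 of 20. The ARF10 events alone had 48.6% (46.1% to 51.1%) and those with all 4 others 42.3%, higher alone on 16 of 20. Over whole lists, 49.4% of the ARF7 events lay in the middle, against 43.1% for ARF10, 47.4% for ARF14, 43.8% for ARF25 and 48.5% for ARF36. ARF7 was the highest, but its difference of 3.74 points over the mean of the others was not the largest of the 5 proteins (exact permutation test, p = 0.4, adjusted 0.4).

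Few ARF7 events alone lay at events of the other 7 lists of the study. Of the 7262 events, 13 (0.179%, 0.105% to 0.306%) lay at an ARF39 event, against 15.7% of the whole ARF7 list. A low share at ARF39 was not limited to ARF7: it was 0.0658% (0.0116% to 0.372%) of the ARF10 events alone and 0.443% for ARF25, against 1.95% for ARF36 and 14.7% for ARF14. Of the ARF7 events alone, 8.91% (8.28% to 9.59%) lay at an event of any of the 6 clade A proteins, while 90.98% lay at none of the 7. By comparison, 49.3% (46.8% to 51.9%) of the ARF10 events alone lay at a clade A event, as did 29.7% for ARF14, 20.3% for ARF25 and 16.4% for ARF36. ARF7 events with all 4 other lists lay at a clade A event in 57.5% of cases and at an ARF39 event in 55.8%. Over whole lists the share at a clade A event was 27.2% for ARF7, 48.8% for ARF10, 42.1% for ARF14, 36.8% for ARF25 and 31.9% for ARF36. These comparisons were not tested.

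Fewer than 10% of the events in each list stood close to another of the same list. In the ARF7 list 9.72% had another ARF7 event within 500 bp, against 7.55% for ARF10, 8.02% for ARF14, 9.37% for ARF25 and 8.97% for ARF36 (exact permutation test, p = 0.4, adjusted 0.4). The difference turned with equal lengths: among the 5000 strongest events the share was 5.10% for ARF7, against 5.28% to 8.16% for the others. Within the ARF7 list it was 6.97% for events alone and 16.5% for events with all 4 other lists.

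Single sites are given by 1-based position as the files number it. The labels and files name no genome build, and genes at the sites were not analysed here. The strongest ARF7 event with all 4 other lists lay at 40632135 of chromosome 12. Its strength was 8743 for ARF7, 7887 for ARF10, 8866 for ARF14, 17268 for ARF25 and 15300 for ARF36. This was the strongest event of the ARF7, ARF10, ARF14 and ARF25 lists, and the nearest event of the other 7 lists was 3168 bp away. The next lay on the same chromosome, at 40628933, with 7844 for ARF7, 4032 for ARF10, 5430 for ARF14, 6309 for ARF25 and 10507 for ARF36. The others were at 16083984 of chromosome 11 (ARF7 strength 5581), 39723279 of chromosome 9 (2152) and 23660754 of chromosome 17 (865). Unlike the first site, all of these later sites had events of the other 7 lists within 100 bp. They ranged from ARF39 alone at the last site to ARF39, ARF4, ARF16, ARF27, ARF29 and ARF34 at 40628933 of chromosome 12. In each of the 5 sites the strength in every list was above the 99.9th percentile of that list.

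The strongest ARF7 events alone were much weaker. The first lay at 24045347 of chromosome 12, with a strength of 365.6 and a percentile of 99.8 within the ARF7 list. The next was at 24044102 of the same chromosome (strength 304). Their −log10 q values were 61.9 and 30.4, and the nearest events of the other 4 lists lay 2832 bp and 1587 bp away, both of ARF10. The third site, at 24152655 of chromosome 10, had a strength of 253 and a −log10 q of 64.96. The fourth, at 15933641 of chromosome 4 (223), had its nearest event of the other 4 lists 70094 bp away. The last, at 4181374 of chromosome 7 (218), lay 245 bp from an ARF25 event, beyond every distance tried for sharing.

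Of the sites held by all 4 others without ARF7, the one with the highest mean percentile of strength spanned 52792593 to 52792619 of chromosome 18. Its percentiles averaged 98.4 ± 1.0 (SD, 4 lists), from strengths of 100 for ARF10, 215 for ARF14, 248 for ARF25 and 203 for ARF36. The nearest ARF7 event was 16908 bp away and had a strength of 52. The next 4 sites lay at 46298879 to 46298896 of chromosome 1, 41550173 to 41550186 and 32255904 to 32255977 of chromosome 7, and 8609157 to 8609174 of chromosome 12, with mean percentiles of 94.3 to 95.4. At these the nearest ARF7 event was 6346 to 38357 bp away.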

How the data were processed

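The authors deposited 1 list of events per protein. Reads were handled with Bowtie2 and Trimmomatic 0.36, per the submitters' processing notes, and GEM, the caller, appears in the list titles. Build and settings: not given in the sources used here. Windows are 201 bp long with the event at offset 100. The strength is the deposited signal value. The −log10 p and −log10 q of each event are the authors' deposited values, capped at 999, with a lowest −log10 q of 5 in the 5 lists. Read depth is unknown.

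Groups came from the sample titles. Nearest distances, Jaccard indices (mean of both directions of sharing), Wilson intervals and mutual nearest pairs (for distances and rho) were computed with scipy 1.17.1, pandas 2.3.3 and numpy 2.4.6 in Python 3.11.15, and plotted with matplotlib 3.10.9. Ties in strength were broken by −log10 q, then position. Two-sided exact permutation tests singled out each of the 5 proteins in turn for 8 measures. The code was tested on simulated lists. Named sites were the 5 strongest ARF7 events alone, the 5 strongest with all 4 lists, and the 5 sites of the 4 others with the highest mean percentile, plus the chromosomes with the highest and lowest share alone. The proteins, lists and measures were chosen with earlier results of these data known. Alternatives were distances of 50 and 200 bp, fewer events per list, the overlap coefficient, each other list left out, ARF39 added, a middle of 20% to 80%, and spacings of 250 and 1000 bp. No genome sequence was used here.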

Additional observations from a re-analysis of the deposited data

Results flagged for a closer look

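The share of the 5000 strongest events that stood alone against the full lists was 12.3% for ARF7, and its gap to the next protein (ARF10, 4.34%) was 0.711 of the whole range of the 5 proteins, just past Dixon's 95% critical value for 5 values. It was the single value past that mark among 18 end values of 9 measures. Without the ARF25 list, ARF7 (13.7%) was no longer the highest, and ARF10 reached 13.9%. Chance alone puts about 1 in 20 groups of independent values past it for a single measure, and 9 measures were looked at. The 5 values come from different proteins, not from replicates, and each was counted against the other lists. That rate therefore need not hold here.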

How the results depend on the processing

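No paired analysis was possible because each protein has 1 library. The 8 tested differences kept their direction under 48 of 49 alternatives, with exact permutation p from 0.2 to 1. The exception was close spacing, which turned to -1.28 points with the 5000 strongest events. The alternatives reuse the same lists and are not independent checks. The index of all events, redone with the 5000 strongest, repeats a value that was itself tested. Without ARF25, ARF10 instead of ARF7 gave the largest difference in the index of the 5000 strongest events, and the ARF7 difference was the smallest in size of the 4 proteins left (-0.082, exact permutation p = 1). With all events ARF7 lost the largest difference in the index without ARF25 (-0.028, exact permutation p = 0.75) and without ARF10 (-0.043, p = 0.5). Of the other values, those that moved beyond counting error, or by over 1.5 times for counts, follow. At 50 bp the shares of ARF7 events at ARF10, ARF14, ARF25 and ARF36 events were 27.2%, 32.3%, 40.1% and 51.04%, those of their events at ARF7 events 45.7%, 70.2%, 43.9% and 47.3%, and 38.8% of the ARF7 events were alone. At 200 bp these were 32.8%, 36.4%, 45.9% and 58.0%, then 53.98%, 77.7%, 50.3% and 53.7%, and 33.5%. With only the events whose −log10 q reached their list median they were 29.6%, 34.6%, 42.0% and 55.4%, then 48.8%, 74.2%, 46.0% and 50.8%, and 36.3%. With the 5000 strongest events they were 37.3%, 54.0%, 41% and 49.2%, then 36.9%, 54.9%, 40.98% and 49.3%, and 32.8%. With the 9542 strongest, those outside counting error were 39.6%, 54.6% and 52.8% (ARF10, ARF14 and ARF36), then 39.2%, 55.1% and 43.8% (ARF10, ARF14 and ARF25), and 29.6%. ARF7 events with all 4 lists numbered 1956, 1257 and 2519 under these last 3 settings, and sites lacking ARF7 alone numbered 395 under the −log10 q setting. Fewer events enter these counts by construction. The ARF7 share alone was 35.8% without ARF10, 36.3% without ARF14, 38.5% without ARF25 and 45.9% without ARF36. Unknown depth limits every statement that a protein lacks an event.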
